A study of Homo sapiens with 8 samples.

Results

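A set of 10 transcripts that encode negative feedback regulators of mitogen-activated protein kinase (MAPK) signalling was described in DLD1 cells with a hairpin RNA against PPA2. They comprise 6 dual-specificity phosphatase genes (DUSP1, DUSP4, DUSP5, DUSP6, DUSP7 and DUSP10), the Sprouty genes SPRY2 and SPRY4, and the Sprouty-related genes SPRED1 and SPRED2. All 10 were matched by exact symbol, each to a single row, among 60234 genes of the normoxia table and 60612 genes of the hypoxia table. DLD1 is an established human colorectal adenocarcinoma line. Messenger RNA was sequenced from 4 groups of 2 libraries: PPA2 knockdown (shPP) under hypoxia, control hairpin (shNT, genotype label WT) under hypoxia, PPA2 knockdown under normoxia and control hairpin under normoxia. Each oxygen condition lasted 12 hours before collection. All groups carry a hairpin, and the labels name no other PPA2 hairpin and no rescue, so effects of the hairpin itself and of PPA2 loss cannot be told apart. Nothing in the labels ties the replicates of a group to separate cultures, so p-values measure the spread between these libraries alone, which may be technical.

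Growth factor receptors signal through RAS, RAF and MEK to ERK, and active ERK induces transcription of its own inhibitors. Dual-specificity phosphatases remove phosphate from the activation loop of ERK, JNK or p38 kinases, each with its own preference and compartment. Sprouty proteins dampen signalling between the receptor and RAF, and Spred proteins bring the RAS inhibitor neurofibromin to the membrane. Transcript levels of DUSP6, DUSP4, SPRY2 and SPRY4 are widely used as readouts of ERK pathway output in tumours. These data hold transcripts and no measure of kinase phosphorylation.

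PPA2, the gene for mitochondrial inorganic pyrophosphatase, stood at 16.2% of the control mean in knockdown libraries under hypoxia and at 7.09% under normoxia, which checks the knockdown labels. Values are taken as reads (RPKM, normoxia) or fragments (FPKM, hypoxia) scaled to gene length and library size. The steps between low values of single-exon genes put the normoxia depth at an estimated 27983975 to 35717800 reads per library. Estimated reads on the 10 genes ran from 169 (DUSP1, knockdown replicate 2) to 13510 (DUSP6, control replicate 2), if exon lengths of GENCODE 29 apply. The hypoxia values showed such steps too weakly to fix a depth, and the depth of those libraries is unknown. Of 10 epithelial colorectal markers, 7 or 8 reached 1 in each group, led by the keratins KRT8, KRT18 and KRT19 and by EPCAM, while CEACAM5 and CEACAM6 stayed under 1. The 5 fibroblast markers, none of which reached 1, summed to 1.20 to 1.35 FPKM in knockdown and 0.568 to 0.649 FPKM in control libraries under hypoxia, and to 0.486 to 0.503 and 0.402 to 0.409 RPKM under normoxia. Endothelial markers summed to at most 0.306 and leukocyte markers to at most 1.49, where CD14 (up to 1.43 RPKM) led under normoxia and PTPRC stood at or near 0. The differentiation marker KRT20 rose and the brush border gene VIL1 fell in knockdown cells at both oxygen levels (log2 1.05 and −1.41 under normoxia, 1.30 and −1.16 under hypoxia). At a limma adjusted p under 0.05, 2 of 8 tested epithelial markers rose and 4 fell under normoxia. Under hypoxia 3 rose and 1 fell. Over all tested genes, 22.5% were higher and 11.7% lower under normoxia, and 24.6% higher and 33.8% lower under hypoxia. The part of these marker shifts in the results was not tested. In bulk RNA, fewer cells of a type and less RNA per cell cannot be told apart.

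The sequence before the gene start is shown for the phosphatase genes DUSP1 and DUSP6, which were both lower with the PPA2 hairpin at each oxygen level. These are the 250 bases upstream of the RefSeq start (GRCh38.p14, minus strand), chr5:172771196-172771445 for DUSP1 and chr12:89352502-89352751 for DUSP6, written 5′ to 3′ along the gene. Capitals mark matches, on either strand, to the cyclic AMP response element TGACGTCA, the E-box CACGTG and the hypoxia response cores ACGTG and GCGTG.
DUSP1: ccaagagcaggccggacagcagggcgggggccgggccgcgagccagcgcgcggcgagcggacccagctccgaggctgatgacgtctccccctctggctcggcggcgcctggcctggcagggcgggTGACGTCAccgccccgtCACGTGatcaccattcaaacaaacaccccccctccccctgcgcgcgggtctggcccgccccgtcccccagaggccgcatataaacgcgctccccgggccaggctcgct
DUSP6: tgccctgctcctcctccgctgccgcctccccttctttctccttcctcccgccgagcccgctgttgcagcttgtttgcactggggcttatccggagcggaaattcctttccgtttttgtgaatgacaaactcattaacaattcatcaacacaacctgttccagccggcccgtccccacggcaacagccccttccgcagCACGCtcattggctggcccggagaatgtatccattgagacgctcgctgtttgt
In DUSP1, the cyclic AMP response element lies 117 bases before the start and the E-box, which holds the core ACGTG on both strands, lies 102 bases before it. The DUSP6 window holds only GCGTG, 48 bases before the start, read on the opposite strand. Of 35116 RefSeq windows of this length, 1.65% held TGACGTCA, 6.34% CACGTG, 18.5% ACGTG and 32.2% GCGTG. The 12 windows of the 8 matched genes (DUSP4 and DUSP5 had none) held no AP-1 motif TGANTCA, ETS motif CCGGAAGT or CArG box, which 6.57%, 3.42% and 1.16% of all windows held. The variant TGACGTNA, which includes TGACGTCA, matched DUSP1 at the same place and 2.67% of all windows. GCGTG also occurred upstream of DUSP10 and SPRED2. A match describes letters in this window and shows no binding.

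DUSP6 and DUSP7 encode cytoplasmic phosphatases that act mainly on ERK. DUSP6 was the most abundant of the 10 transcripts in the normoxia libraries, at 49.0 and 49.3 RPKM in knockdown cells against 85.0 and 81.7 RPKM in control cells. Under hypoxia DUSP6 stood at 28.4 and 30.2 FPKM in knockdown cells and at 49.3 and 51.2 FPKM in control cells. Both knockdown libraries lay well below both controls at each oxygen level, with knockdown means at 59.0% (normoxia) and 58.3% (hypoxia) of control. DUSP6 fell by 0.75 ± 0.05 (SE) under normoxia on the log2(value + 1) scale, with a limma adjusted p of 0.000441. Its fall under hypoxia was 0.76 ± 0.07, with a limma adjusted p of 0.000173. The ENSG00000139318 gene of DUSP6 lies on chromosome 12, from 89347235 to 89352501 on the minus strand, and shares 1875 exon bases with the antisense transcript AC024909.2, which was at most 0.419 FPKM in the hypoxia libraries. Whether the counting used strand is not given in the sources used here.

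DUSP7, its close relative, was called at 1 oxygen level. Under normoxia DUSP7 stood at 6.70 and 6.55 RPKM in knockdown cells against 7.44 and 7.15 RPKM in control cells, a log2 difference of −0.12 ± 0.07 that did not pass (limma adjusted p = 0.233). Under hypoxia the knockdown libraries were the higher ones, at 4.14 and 3.64 FPKM against 3.05 and 2.61 FPKM in control libraries. This rise of 0.35 ± 0.12 passed narrowly (limma adjusted p = 0.0399). Leaving out control replicate 2 (limma adjusted p = 0.115), knockdown replicate 1 (0.251) or knockdown replicate 2 (0.0813) ended the call.

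The nuclear, inducible phosphatases moved in opposite directions. DUSP1, an immediate early gene whose product acts on p38, JNK and ERK, was at 2.78 and 2.73 RPKM in knockdown cells under normoxia against 5.04 and 4.81 RPKM in control cells. It fell by 0.66 ± 0.09 (limma adjusted p = 0.00322), and the knockdown mean was 56.0% of control. Under hypoxia DUSP1 was at 2.75 and 1.97 FPKM in knockdown cells and at 3.61 and 3.25 FPKM in control cells. The groups again did not overlap, but the knockdown libraries were spread and the fall of 0.41 ± 0.15 passed only narrowly (limma adjusted p = 0.0466). It was lost without control replicate 1 (adjusted p = 0.165), control replicate 2 (0.0853) or knockdown replicate 2 (0.316), and passed in 4 of 13 alternative limma analyses. The gene lies on chromosome 5, from 172768096 to 172771195 on the minus strand.

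DUSP4, which encodes a nuclear phosphatase of ERK and JNK, was, among the 10 genes, the 1 phosphatase gene higher in knockdown cells at both oxygen levels. Outside the 10 genes, the knockdown libraries of DUSP3 and DUSP14 also lay above the control libraries at both oxygen levels. The normoxia levels of DUSP4 were 3.86 and 3.71 RPKM in knockdown cells and 2.01 and 1.96 RPKM in control cells. The rise was 0.68 ± 0.10 on the log2(value + 1) scale (limma adjusted p = 0.00383), and the ratio of group means was 1.91. Under hypoxia DUSP4 stood at 1.69 and 1.74 FPKM in knockdown cells and at 0.611 and 0.580 FPKM in control cells, which made it the lowest of the 10 transcripts in both hypoxia groups. The ratio of means was 2.87 and the difference 0.76 ± 0.14 on the log2(value + 1) scale. With a mean of 1.15 FPKM over the 4 libraries, DUSP4 passed the filter (a mean of at least 1) only through the knockdown group, and without either knockdown library it was not tested. Its hypoxia call therefore supports nothing on its own, and the fit without a filter on low values gave a limma adjusted p of 0.0256. The gene lies on chromosome 8, from 29333064 to 29350684 on the minus strand.

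DUSP5, a nuclear phosphatase selective for ERK and induced by it, followed DUSP6. Its levels under normoxia were 19.4 and 18.3 RPKM in knockdown cells and 28.0 and 27.1 RPKM in control cells, a fall of 0.52 ± 0.06 (limma adjusted p = 0.00198). Under hypoxia they were 25.1 and 25.1 FPKM in knockdown cells against 37.9 and 39.9 FPKM in control cells, a fall of 0.61 ± 0.07 (limma adjusted p = 0.000359). No knockdown library reached a control library in either table. DUSP10 encodes a phosphatase that prefers p38 and JNK over ERK. Under normoxia it was at 4.39 and 4.59 RPKM in knockdown cells and at 5.79 and 5.82 RPKM in control cells, a fall of 0.31 ± 0.08 (limma adjusted p = 0.0253). Under hypoxia the order turned round, with 7.47 and 6.07 FPKM in knockdown cells against 5.51 and 4.38 FPKM in control cells, a rise of 0.39 ± 0.14 (limma adjusted p = 0.0443). Both calls for DUSP10 were lost without some libraries, while its log2 fold change without single libraries stayed between −0.34 and −0.28 under normoxia and ran from 0.25 to 0.52 under hypoxia. The limma adjusted p under normoxia was 0.115 without control replicate 1, 0.117 without control replicate 2 and 0.0632 without knockdown replicate 1, and under hypoxia it was 0.184 without control replicate 2 and 0.257 without knockdown replicate 1.

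**Figure D1:**
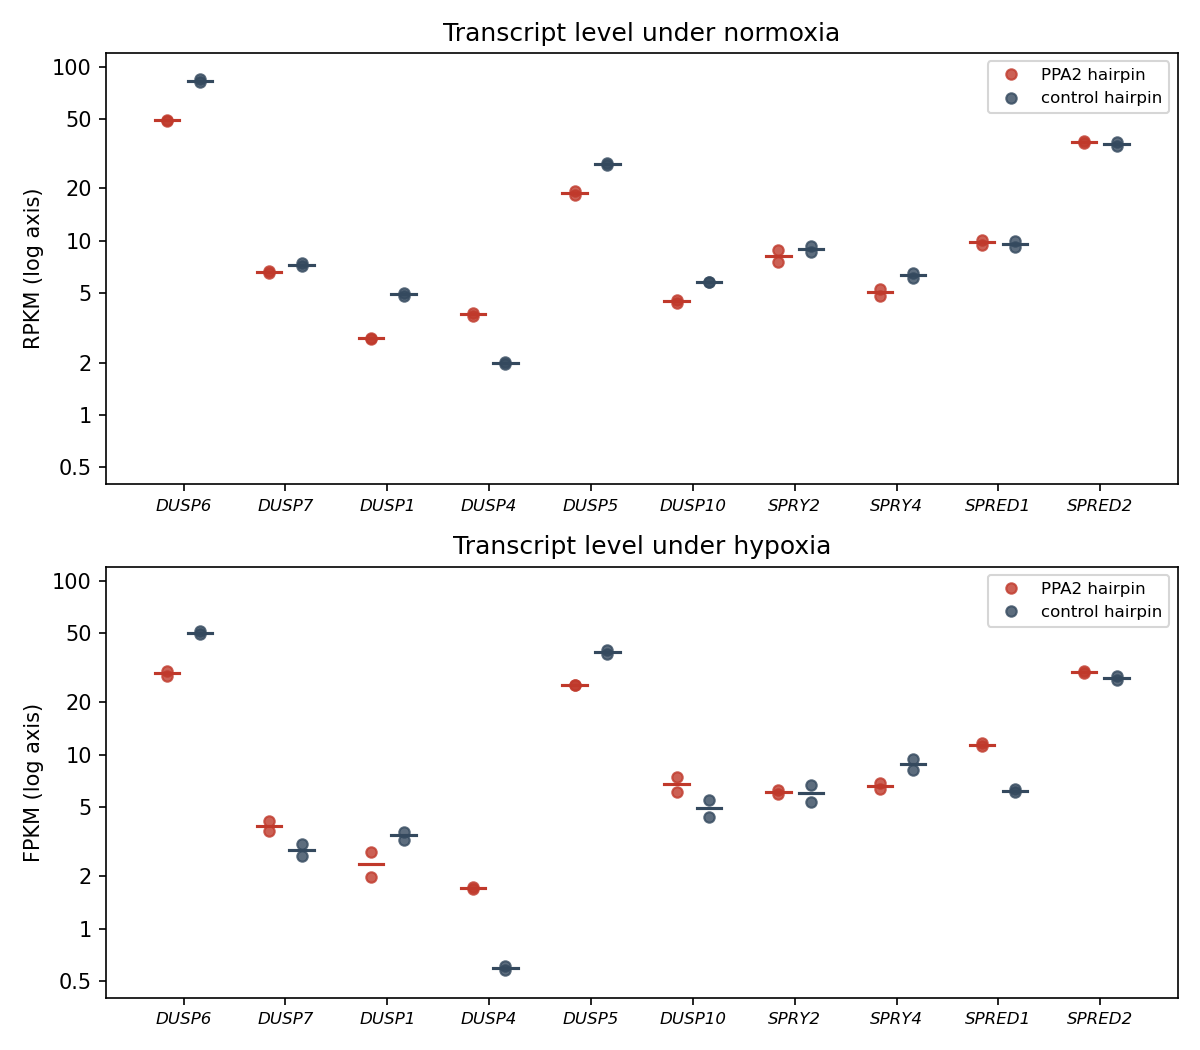
Level of each of the 10 transcripts in every library, as RPKM under normoxia (top) and FPKM under hypoxia (bottom) on log axes, with PPA2 hairpin libraries in red left of control hairpin libraries in dark blue; points are libraries and bars group means (n = 2). DUSP6 and DUSP5 are lower and DUSP4 is higher in the knockdown libraries of both panels, and SPRED1 is apart under hypoxia, at 11.6 and 11.2 FPKM in knockdown cells against 6.31 and 6.12 FPKM in control cells.

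The Sprouty genes SPRY2 and SPRY4, which encode membrane-associated inhibitors of receptor signalling, showed small differences. SPRY4 was at 5.27 and 4.84 RPKM in knockdown cells under normoxia against 6.56 and 6.09 RPKM in control cells, a fall of 0.28 ± 0.08 (limma adjusted p = 0.0452). Under hypoxia SPRY4 was at 6.34 and 6.88 FPKM in knockdown cells and at 8.13 and 9.45 FPKM in control cells, a fall of 0.36 ± 0.10 (limma adjusted p = 0.0203). The groups did not overlap in either table. The normoxia call was lost whichever library was left out, at a limma adjusted p of 0.0528 to 0.241, and the hypoxia call was lost without control replicate 2 (0.0640) or knockdown replicate 1 (0.123). Leaving out mitochondrial genome genes also ended both calls of SPRY4, at 0.0708 under normoxia and 0.193 under hypoxia.

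SPRY2 did not pass in either table. Its values overlapped between groups under normoxia, at 7.58 and 8.85 RPKM in knockdown cells and 9.38 and 8.65 RPKM in control cells (−0.12 ± 0.09, limma adjusted p = 0.329). They overlapped again under hypoxia, at 6.26 and 5.95 FPKM in knockdown cells and 6.73 and 5.37 FPKM in control cells (0.02 ± 0.12, limma adjusted p = 0.914). The 95% intervals of the SPRY2 log2 fold change, −0.34 to 0.10 under normoxia and −0.26 to 0.30 under hypoxia, leave room for changes of the size seen in SPRY4. Among these readouts of ERK output under normoxia, DUSP4 was called higher and DUSP6 and SPRY4 lower.

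SPRED1 was apart between groups at 1 oxygen level only. Under normoxia its values overlapped, at 9.43 and 10.1 RPKM in knockdown cells and 9.95 and 9.28 RPKM in control cells (0.02 ± 0.07, limma adjusted p = 0.828). Under hypoxia SPRED1 was at 11.6 and 11.2 FPKM in knockdown cells against 6.31 and 6.12 FPKM in control cells. The rise was 0.78 ± 0.08 (limma adjusted p = 0.000313), the largest rise among the 10 genes on this scale, with a ratio of means of 1.84. SPRED1 lies on chromosome 15, from 38252836 to 38357249 on the plus strand. Its paralog SPRED2 was abundant and nearly level, at 37.4 and 36.6 RPKM in knockdown cells under normoxia against 36.8 and 35.0 RPKM in control cells (0.04 ± 0.05, limma adjusted p = 0.567). Under hypoxia SPRED2 was at 30.1 and 29.3 FPKM in knockdown cells and at 26.7 and 28.3 FPKM in control cells. This difference of 0.11 ± 0.07 did not pass (limma adjusted p = 0.22), although the groups were apart and the value rose to 0.30 (adjusted p = 0.0142) when mitochondrial genome genes were left out.

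**Figure D2:**
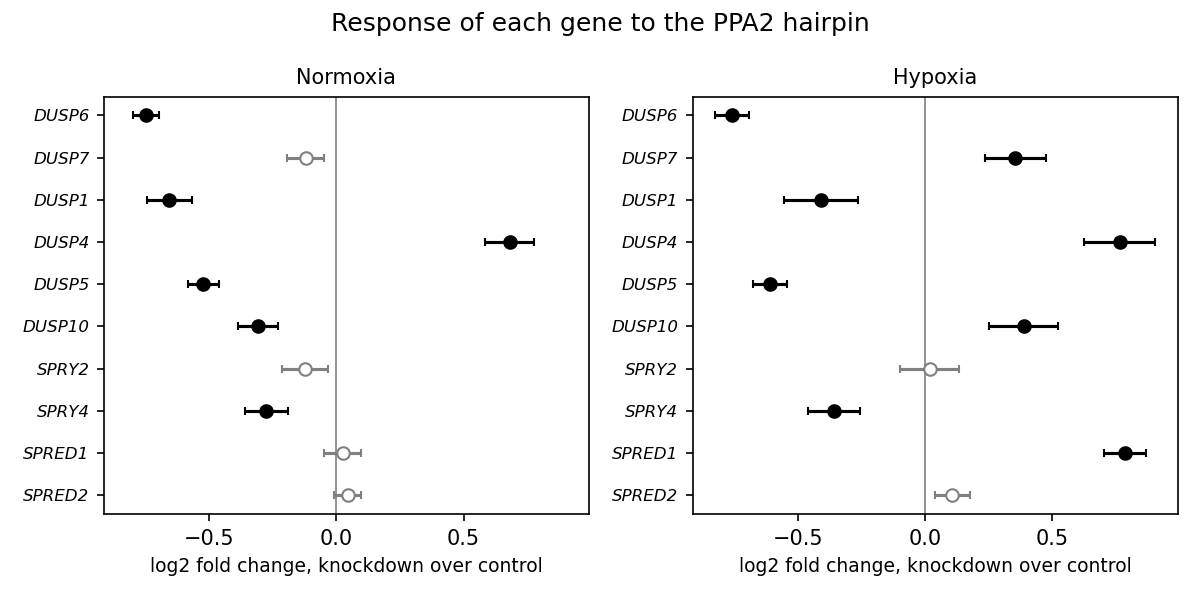
Log2 fold change of knockdown over control for each gene under normoxia (left) and hypoxia (right), with the standard error of the limma fit (n = 2 libraries per group); filled points passed at a limma adjusted p under 0.05. DUSP6, DUSP5, DUSP1 and SPRY4 lie left of 0 and DUSP4 right of 0 in both panels, while DUSP10 changes side.

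Counted over the 10 genes under normoxia, 5 fell, 1 rose and 4 did not pass, with a median log2 fold change of −0.20 against 0.07 over all 14090 tested genes. Of all tested genes, 34.2% were called, 11.7% lower and 22.5% higher. Under hypoxia 4 fell, 4 rose (DUSP4 among them, which entered the test only through its knockdown group) and 2 did not pass, with a median of 0.06 against −0.06 over all 13080 tested genes, of which 58.4% were called, 33.8% lower and 24.6% higher. The share that fell under hypoxia was therefore close to that of all genes. The 4 genes DUSP1, DUSP5, DUSP6 and SPRY4 were called lower in both tables, as were 7.89% of the 12060 genes tested in both. The 10 genes were chosen with earlier results of these data known, so these shares are no test of the set. The calls of DUSP1 under hypoxia and of SPRY4 in both tables were lost without some single libraries. DUSP10 alone was called in opposite directions (3.82% of all). DUSP4 was called higher in both, as were 12.1% of all, but nothing is read from this, since the filter on low values bears on its hypoxia call. Knockdown and control libraries did not overlap in 7 of the 10 genes under normoxia (1 above, 6 below), against 70.5% of all tested genes (44.2% above, 26.4% below). Under hypoxia they did not overlap in 9 genes (5 above, 4 below), against 80.4% of all tested genes (35.5% above, 44.9% below). Adding a fold of at least 1.5 left DUSP1, DUSP4 and DUSP6 under normoxia and DUSP4, DUSP5, DUSP6 and SPRED1 under hypoxia.

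The difference of both responses to the hairpin, hypoxia minus normoxia, was tested in a fit of all 8 libraries. Each oxygen level came from its own table, so effects of oxygen and of table processing on a response cannot be told apart. SPRED1 had a response higher by 0.76 ± 0.11 under hypoxia than under normoxia (limma adjusted p = 0.000451), and this passed in all 17 alternative analyses. DUSP10 had a response higher by 0.70 ± 0.16 (limma adjusted p = 0.00739), from 0.39 under hypoxia and −0.31 under normoxia. It passed in 16 of 17 alternatives, among them all 8 that left out a library, and failed without a filter on low values (limma adjusted p = 0.0523). DUSP7 had a response higher by 0.48 ± 0.13 (limma adjusted p = 0.0175). This difference did not pass without the normoxia control replicate 1 (0.0686), the normoxia knockdown replicate 2 (0.0538) or the hypoxia knockdown replicate 1 (0.0699). No member had a response called lower under hypoxia, and 42.4% of 13585 tested genes were called in either direction, 13.4% with a higher and 29% with a lower response. The median difference over all genes was −0.13. With each library centred on its median, the differences were 0.91 for SPRED1, 0.85 for DUSP10 and 0.63 for DUSP7, and all 3 passed.

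For the other 7 genes the difference did not pass. The DUSP6 response differed by −0.01 ± 0.08 (limma adjusted p = 0.93), with a 95% interval from −0.20 to 0.17. For DUSP4 the interval ran from −0.25 to 0.41 and for DUSP5 from −0.28 to 0.11. With 0.1 or 0.01 added to each value in place of 1, the DUSP4 difference was 0.48 (limma adjusted p = 0.103) or 0.58 (0.0656). Both values lie above the DUSP4 interval. DUSP1 had a difference of 0.25 ± 0.17 with a wide interval, from −0.13 to 0.63. These intervals do not show that the responses were equal. The signs of the DUSP5, DUSP6 and SPRY4 differences turned positive when libraries were centred on their median or mitochondrial genome genes were left out, at limma adjusted p-values of 0.204 or more.

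**Figure D3:**
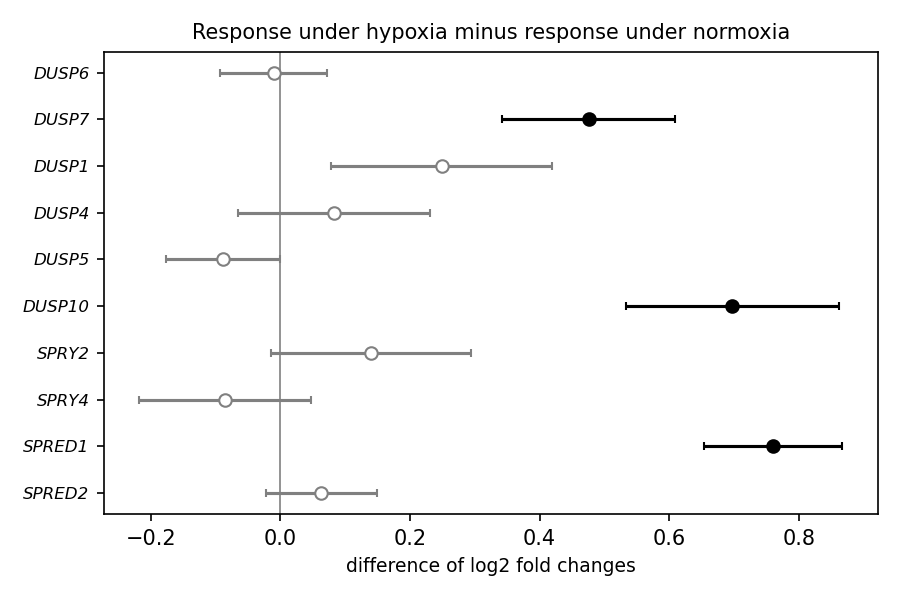
Difference of the log2 responses to the PPA2 hairpin, hypoxia minus normoxia, with the standard error of the limma fit of all 8 libraries; filled points passed at a limma adjusted p under 0.05. SPRED1 (0.76), DUSP10 (0.70) and DUSP7 (0.48) stand right of 0, and the bars of DUSP6 cross it.

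Levels across oxygen conditions were set side by side without a test, since the tables were normalized separately. In the normoxia control libraries the order by mean RPKM was DUSP6, SPRED2, DUSP5, SPRED1, SPRY2, DUSP7, SPRY4, DUSP10, DUSP1 and DUSP4, and only SPRED1 and SPRY2 overlapped as neighbours. In the hypoxia control libraries the order by mean FPKM was DUSP6, DUSP5, SPRED2, SPRY4, SPRED1, SPRY2, DUSP10, DUSP1, DUSP7 and DUSP4, where SPRED1, SPRY2 and DUSP10 overlapped in turn. In knockdown cells under hypoxia, SPRED2 (29.7 FPKM) and DUSP6 (29.3 FPKM) overlapped at the head of the order, which DUSP6 alone led in the other 3 groups. DUSP4 held the last place in every group but the normoxia knockdown, where DUSP1 was lower, at 2.76 against 3.78 RPKM.

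Of 11 other MAPK phosphatase, Sprouty and Spred genes, 9 were tested under normoxia (1 rose, 2 fell, 6 did not pass) and 8 under hypoxia (1 rose, 1 fell, 6 did not pass), with median log2 fold changes of 0.06 and 0.16. Over all tested genes, 34.2% were called under normoxia and 58.4% under hypoxia. SPRY1, another Sprouty inhibitor, fell at both oxygen levels. It was at 4.95 and 5.15 RPKM in knockdown cells under normoxia against 8.08 and 7.95 RPKM in control cells (−0.58 ± 0.07, limma adjusted p = 0.00286). Under hypoxia SPRY1 was at 15.2 and 17.1 FPKM in knockdown cells against 30.8 and 31.0 FPKM in control cells (−0.89 ± 0.08, limma adjusted p = 0.000167). In both tables its knockdown libraries lay below its control libraries. DUSP3, an atypical phosphatase of ERK and JNK, rose under hypoxia, at 25.3 and 24.5 FPKM in knockdown cells against 14.5 and 15.9 FPKM in control cells (0.68 ± 0.08, limma adjusted p = 0.000429).

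Ligands, receptors and adaptors act upstream of RAS. Set beside the counts of this and the next lists are the shares over all tested genes, 22.5% higher and 11.7% lower under normoxia and 24.6% higher and 33.8% lower under hypoxia. Of 5 tested EGF family ligands, 2 rose and none fell under normoxia, while 3 rose and 2 fell under hypoxia. The median was 0.10 under normoxia and 0.55 under hypoxia. BTC, a ligand of EGFR and ERBB4, was at 8.54 and 9.51 RPKM in knockdown cells under normoxia against 2.72 and 2.52 RPKM in control cells (1.47 ± 0.09, limma adjusted p = 0.000383), and rose by 1.21 ± 0.11 under hypoxia (limma adjusted p = 0.000169). TGFA, another EGFR ligand, rose by 0.43 ± 0.05 under normoxia and 0.64 ± 0.08 under hypoxia, while EREG (−0.58 ± 0.07) and AREG (−0.41 ± 0.08) fell under hypoxia. Of 20 receptor and adaptor genes, 7 rose and 2 fell under normoxia (median 0.06), and 11 rose and 2 fell under hypoxia (median 0.31). ERRFI1, a feedback inhibitor of EGFR kinase, fell most, at 150 and 159 RPKM in knockdown cells under normoxia against 316 and 290 RPKM in control cells (−0.97 ± 0.06, limma adjusted p = 0.00041). Its fall under hypoxia was 0.90 ± 0.07 (limma adjusted p = 0.000109). ERBB3 (−0.72 ± 0.06) also fell under normoxia and did not pass under hypoxia (−0.17, limma adjusted p = 0.11). ERBB2 rose by 0.30 ± 0.06 under normoxia and 0.79 ± 0.07 under hypoxia. The adaptor FRS2 rose by 0.45 ± 0.07 and 0.81 ± 0.10, in that order.

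RAS proteins pass the signal to the kinases. Of 9 RAS genes and regulators, 3 rose and none fell under normoxia (median 0.22). Under hypoxia 2 of 8 rose and 1 fell (median 0.17). NRAS led both, rising by 0.65 ± 0.06 under normoxia (limma adjusted p = 0.000923) and by 1.05 ± 0.07 under hypoxia (limma adjusted p = 8.59e-05). Of 14 ERK cascade kinases and scaffolds, 3 rose and none fell under normoxia (median 0.04), and 5 rose and 1 fell under hypoxia (median 0.21). MAPK3, which encodes an ERK kinase, rose by 0.28 ± 0.08 under hypoxia (limma adjusted p = 0.02), but did not pass when knockdown replicate 2 (0.213) or control replicate 2 (0.0576) was left out. Of 15 p38, JNK and ERK5 pathway kinases, 4 rose and none fell under normoxia (median 0.16), and 2 rose and 3 fell under hypoxia (median 0.05). MAPK12, a p38 kinase gene, rose by 0.42 ± 0.06 under normoxia and fell by 1.03 ± 0.09 under hypoxia, a difference of −1.45 ± 0.11 (limma adjusted p = 2.34e-05).

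The last list holds transcripts that ERK signalling can induce, other than the 10 feedback genes. Whether shifts in this list follow ERK activity was not tested. Of 26 tested under normoxia, 11 fell and 4 rose (median −0.20), against 11.7% lower and 22.5% higher over all tested genes. Of 25 tested under hypoxia, 13 fell and 5 rose (median −0.27), where all tested genes also leaned lower (33.8% lower, 24.6% higher). HBEGF and EREG stand in this list and among the ligands. JUN, an AP-1 subunit, was at 6.65 and 6.13 RPKM in knockdown cells under normoxia against 27.4 and 25.0 RPKM in control cells, and fell by 1.88 ± 0.07 under normoxia (limma adjusted p = 0.000155) and by 2.28 ± 0.08 under hypoxia (limma adjusted p = 1.2e-05). EGR1, an immediate early transcription factor, fell by 1.18 ± 0.06 and 1.93 ± 0.08, and IER3, an early response survival gene, by 0.99 ± 0.07 and 1.90 ± 0.07, under normoxia and hypoxia in that order. PLAU, which encodes urokinase, rose instead, by 1.32 ± 0.09 under normoxia and 1.23 ± 0.10 under hypoxia. TRIB1, a pseudokinase gene, rose by 0.37 ± 0.07 under normoxia and 1.24 ± 0.10 under hypoxia. ETV4 and ETV5, transcription factors often read together with DUSP6 and SPRY4, gave small values. ETV4 was level under normoxia (0.04, limma adjusted p = 0.643) and fell under hypoxia (−0.27), while ETV5 (0.20 under normoxia, limma adjusted p = 0.0582) rose under hypoxia (0.27).

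**Figure D4:**
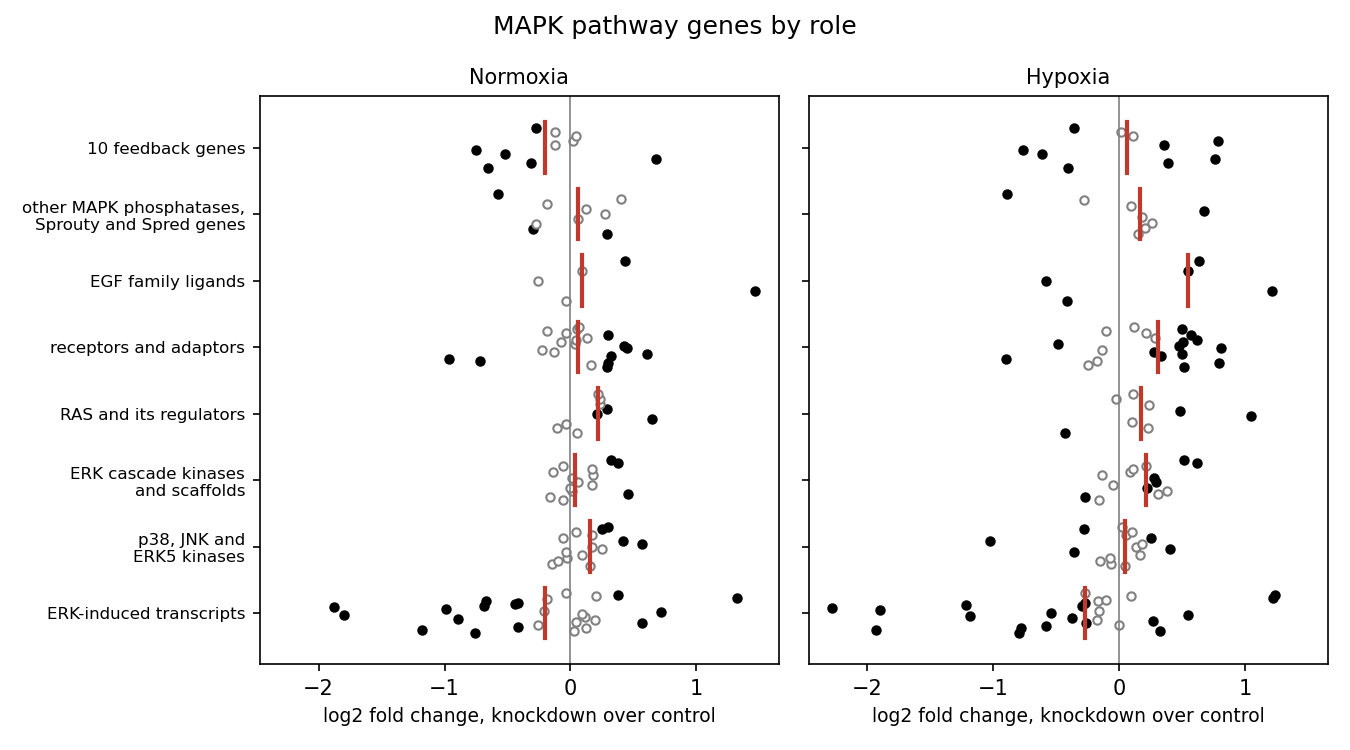
Log2 fold change of knockdown over control for genes of the MAPK pathway, grouped by role, under normoxia (left) and hypoxia (right); each point is a gene, filled where its limma adjusted p was under 0.05, and red bars are group medians. ERK-induced transcripts spread farthest, down to −1.88 (JUN) under normoxia and −2.28 (JUN) under hypoxia, while the 10 feedback genes stay between −0.76 and 0.78.

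Patterns closest to DUSP6, DUSP4 and SPRY4 were sought over the 8 libraries, as the smallest root mean square distance between log2(value + 1) deviations from the control mean of each table, among 12060 genes. For DUSP6 these were NSMF (0.066), the stress transcription factor ATF4 (0.068) and HNRNPA1P10 (0.069), against a median distance of 0.558 over all genes. EPDR1 (0.036), MDFIC (0.045) and the complement protease gene C1R (0.046) were closest to DUSP4, and COG7 (0.030), GHDC (0.038) and SLC25A26 (0.042) to SPRY4, at medians of 0.541 and 0.312. DUSP4 reached the mean of 1 required under hypoxia only through its knockdown group, so nothing is read from its neighbours. HNRNPA1P10 is a pseudogene of HNRNPA1 and can share its reads. These are descriptions over 8 libraries of 4 groups, without a test.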

How the data were processed

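The 8 DLD1 libraries were prepared from Trizol-extracted, DNase-treated total RNA by poly(A) selection and a directional library kit, per the labels' protocols. The submitters' processing notes name cutadapt 1.18, Trimmomatic 0.35, FastQC, HISAT2 2.1.0 and GRCh38. The counting tool and gene annotation are not stated in the sources. The authors deposited RPKM (normoxia) and FPKM (hypoxia) as separate tables, per the file headers. A second hypoxia sheet with annotation (19630 genes, 0 differing values) and 4 value columns of samples outside this series were not used for tests.

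Tests ran on log2(value + 1), a scale that compresses changes of low genes. A gene entered a fit where its mean reached 1. Knockdown was compared with control within each table, and the difference of responses in all 8 libraries over 57069 symbols used once in both tables, with limma 3.58.1 in R 4.3.3 (empirical Bayes with mean-variance trend, Benjamini-Hochberg over all tested genes, called at an adjusted p under 0.05). Steps were tested on simulated data. Depth was the read number chosen so that most values of single-exon genes with up to 20 reads came out whole within 0.02, which held for 88.2% to 89.3% of them under normoxia and 15.6% to 16.0% under hypoxia. By chance, 4.0% would come out whole. Promoter letters were matched with Python 3.11.15.

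The 10 genes and all lists were chosen with earlier results of these data known. Outside the 10 genes and PPA2, the naming rule allowed up to 4 called rises and 4 called falls of each list and the 3 genes nearest in pattern to DUSP6, DUSP4 and SPRY4. ETV4 and ETV5 were named after their values were seen. A few genes are not reported here. Pseudocounts of 0.1 and 0.01, other filters and scalings, stricter thresholds, a robust fit, a joint fit of both tables, a replicate block and the removal of each library were tried as well.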

Additional observations from a re-analysis of the deposited data

Results flagged for a closer look

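For 3 of the 10 genes the response to the PPA2 hairpin differed between the normoxia and hypoxia tables by the test of the difference itself. Oxygen level and table coincide, so their parts in this difference cannot be told apart. The log2 response under hypoxia minus that under normoxia was 0.76 for SPRED1, 0.70 for DUSP10 and 0.48 for DUSP7. At an adjusted p under 0.05 in limma, 42.4% of all tested genes differed in this way, so such a difference is common in these data. Scaling moves with it: the median difference over all genes was −0.13 as deposited and 0.02 with libraries centred on their median, and the 3 calls were kept under that centring. The part of scaling in the remaining size was not tested.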

How the results depend on the processing

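Calls of DUSP5 and DUSP6 held in all 14 alternatives at each oxygen level, and that of DUSP4 under normoxia in all 13; its hypoxia call depends on the filter for entry and is not read as stable. Members called under hypoxia numbered 8 as reported and 4 without a filter on low values, 5 at a mean of at least 5 (7 members tested), 4 at an adjusted p under 0.01 and 4 with a fold of at least 1.5. Leaving out a library gave 4 to 7. Under normoxia, 3 members had a fold of at least 1.5, and leaving out a library left 4 or 5 of 6. For the difference, 1 of 3 members passed without a filter. Over all genes under normoxia, 4818 calls became 2349 without a filter, 2147 at an adjusted p under 0.01, 992 with a fold of at least 1.5 and 3027 to 4503 without single libraries. Under hypoxia, 7637 became 3534 with a fold of at least 1.5. Without any filter, 34609 and 29182 genes entered the normoxia and hypoxia fits.

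Scaling moved the split of calls. Higher calls made up 65.7% under normoxia as deposited, 44.6% after median centring, 52.3% after quantile normalization and 75.5% without mitochondrial genome genes. For hypoxia these shares were 42.2%, 49.2%, 50.9% and 60.4%, and the median log2 fold change of all genes was 0.10 without mitochondrial genome genes, against −0.06 as deposited. For the difference they were 31.5%, 53%, 50.9% and 47.1%.

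Signs turned only in members that did not pass, and in KRT18 under normoxia (0.023 after quantile normalization). SPRED1 under normoxia was −0.062 after centring and −0.069 after quantile normalization, and ran from −0.025 to 0.072 without single libraries. SPRED2 under normoxia was −0.042 after centring. SPRY2 under hypoxia ran from −0.12 to 0.16 without single libraries. The difference of DUSP5, DUSP6 and SPRY4 was 0.063, 0.14 and 0.066 after centring, 0.077, 0.093 and 0.077 after quantile normalization and 0.046, 0.12 and 0.038 without mitochondrial genome genes. Without single libraries, DUSP6 ran from −0.055 to 0.034 and SPRY4 from −0.18 to 0.013. The cause was not tested.

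Replicate numbers share only a number (r = 0.04 and −0.02 between same-numbered deviations), and the replicate block kept 6, 8 and 3 members called, with 5060, 7751 and 5471 genes called for normoxia, hypoxia and the difference. With 2 libraries a group and no counts, error rests on the spread between libraries.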
